A study of Mus musculus with 16 samples.

Results

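The Wnt feedback inhibitors and targets described here are 10 mouse genes that canonical Wnt signalling is known to switch on or that restrain it: Wif1, Dkk1, Notum, Apcdd1, Rnf43, Znrf3, Nkd1, Axin2, Lef1 and Sp5. Every array probe whose RefSeq accession belongs to 1 of these genes was taken. That gave 14 probes for the 10 genes, of 56605 probes on the array, and all 10 genes were among the 15646 genes measured. The 10 genes were chosen by their log2 differences between these groups, known from an earlier look at the same arrays, so their values are given as a description and no test is drawn from them.

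The samples were whole kidneys of C57BL/6 mouse embryos at embryonic day 17.5, in 4 groups of 4 arrays each. In the Ezh2-KO group both copies of Ezh2 were deleted in the Six2-positive nephron progenitors and Ezh1 was wild type. In the Ezh1-het group the same deletion was combined with the germline loss of 1 Ezh1 allele, and in the double knockout with the germline loss of both. The control group was wild type for both genes, and the titles call its samples kidney pairs. All 3 knockout groups therefore share the Ezh2 deletion, made in 1 cell population and carried by the cells that descend from it. The lost Ezh1 alleles of Ezh1-het and the double knockout were absent from every cell. The driver of the deletion and the number of animals behind each sample are not given in the sources used here, so a p-value here covers the spread between samples, which may in part be technical. Each array carried the sample RNA in the red dye (Cy5) and RNA of control 1 in the green dye (Cy3), and no dyes were swapped. Values are therefore log2 ratios of a sample to control 1, and the array of control 1 compares that RNA with itself.

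EZH1 and EZH2 are the alternative catalytic subunits of Polycomb repressive complex 2, which places the repressive histone mark H3K27me3, mostly at CpG-rich promoters. Canonical Wnt ligands bind a Frizzled receptor with LRP5 or LRP6, which frees β-catenin from its destruction complex so that it can join TCF/LEF factors at target genes. Several of the targets encode inhibitors of the same pathway and so form negative feedback. In the embryonic kidney, WNT9B from the ureteric bud acts on the nephron progenitors, and WNT4 acts in the committed progenitors that form nephrons.

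RefSeq promoter windows (build GRCm38.p6) were held for 7 of the 10 genes, in 11 windows of 250 bases before a transcription start. The core of the TCF/LEF site, CTTTGA or its reverse complement TCAAAG, was searched on both strands. It occurred in 3 of the 11 windows, 1 each of Sp5, Dkk1 and Lef1, and in 4544 of 32851 such windows of all genes (13.8%). Each of the 3 windows holds the core at 2 positions. In Lef1 these lie 180 and 120 bases before the start that is furthest downstream (chr3:131156044-131156293, plus strand), and the windows of its other starts hold none. Sp5 and Dkk1 are shown because, unlike Lef1, they had a knockout group with every array above every control, and capitals mark the core. They begin 204 and 104 bases before the start in Sp5 (chr2:70474673-70474922, plus strand) and 174 and 117 bases before it in Dkk1 (chr19:30549497-30549746, minus strand).
Sp5: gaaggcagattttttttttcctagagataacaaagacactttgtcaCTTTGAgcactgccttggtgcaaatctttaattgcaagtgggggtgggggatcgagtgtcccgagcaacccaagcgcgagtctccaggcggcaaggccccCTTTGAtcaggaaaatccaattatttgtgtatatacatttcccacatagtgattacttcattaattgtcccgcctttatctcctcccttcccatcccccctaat
Dkk1: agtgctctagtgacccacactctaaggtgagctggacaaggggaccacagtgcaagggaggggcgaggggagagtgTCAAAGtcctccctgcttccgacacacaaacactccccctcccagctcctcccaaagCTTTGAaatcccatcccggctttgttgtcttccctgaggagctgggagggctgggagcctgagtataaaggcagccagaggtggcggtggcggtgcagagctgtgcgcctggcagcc

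Wif1 and Rnf43 are shown because they stood clear of control in all 3 knockout groups and had a window above the median CG ratio. That ratio sets the CG dinucleotides of a window against the number its base composition would give. Nkd1, which also stood clear, had 6 CG dinucleotides at a ratio below the median of all windows, and Apcdd1 had no window. Capitals mark every CG. The Wif1 window (chr10:121033754-121034003, plus strand) has 21 CG dinucleotides, 0.858 of the number its base composition would give. That ratio is above the ratio in 85.4% of all windows. Of the 2 Rnf43 windows the one shown (chr11:87662837-87663086, plus strand) has 8 CG dinucleotides and a ratio of 0.661, and the other has 2 and a ratio of 0.160. GC content was 44.4% in the Rnf43 window shown and 62.8% in the Wif1 window, so between Rnf43 and Wif1 only Wif1 was rich in CG by number. The median ratio over all windows was 0.373.
Wif1: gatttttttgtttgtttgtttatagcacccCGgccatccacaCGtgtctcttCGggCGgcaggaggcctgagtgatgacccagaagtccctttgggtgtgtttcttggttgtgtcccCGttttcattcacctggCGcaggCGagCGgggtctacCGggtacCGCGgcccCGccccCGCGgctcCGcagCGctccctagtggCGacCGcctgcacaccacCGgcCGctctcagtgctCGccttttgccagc
Rnf43: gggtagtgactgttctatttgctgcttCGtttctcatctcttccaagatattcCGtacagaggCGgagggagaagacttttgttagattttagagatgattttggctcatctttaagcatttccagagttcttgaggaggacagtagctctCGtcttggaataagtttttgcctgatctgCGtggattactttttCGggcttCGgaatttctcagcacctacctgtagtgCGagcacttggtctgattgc

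The Axin2 window, at a ratio of 0.860 with 24 CG dinucleotides, matched Wif1 in CG content although the values of the 2 genes on the arrays differed, as given below. Sp5 had a ratio of 0.462, Nkd1 0.294 and Dkk1 0.260, and the Lef1 windows had 0.375 to 0.508. A match of these letters describes the window and does not show that a factor or mark was present.

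The arrays first checked the labels. Ezh1 averaged 0.05 over Ezh2-KO, -1.13 over Ezh1-het and -4.55 over double knockout arrays, against -0.08 in control, as log2 ratios. Of 5 Ezh2 probes that were measured, 1 averaged -3.32, -3.43 and -3.09 in Ezh2-KO, Ezh1-het and the double knockout, against 0.09 in control, and the other probes averaged between -0.45 and -0.11 in the knockout groups. Control 2 had the weakest signal over background of the 16 arrays. In a principal component analysis the first axis (36.1% of variance) had control 3 and Ezh2-KO 1 at its end. The arrays lay on 2 slides, with replicates 1 and 2 of every group on slide 1 and replicates 3 and 4 on slide 2. Differences are given from 1 limma fit over all genes and all 16 arrays, and a gene counts as called at a Benjamini-Hochberg adjusted p under 0.05.

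The inhibitors Wif1, Rnf43, Apcdd1 and Nkd1 were above every control array in each knockout group, though Nkd1 only just in the double knockout. Sp5 did so in Ezh1-het and double knockout, and Dkk1 in Ezh1-het. By the probes that stand for them, Znrf3, Axin2 and Lef1 overlapped the controls in all 3 groups, and Notum did in Ezh2-KO and double knockout. The median difference over the 10 genes was 0.50 for Ezh2-KO, 0.55 for Ezh1-het and 0.43 for the double knockout, beside 0.06, 0.05 and 0.01 over all genes in the same comparisons. The values of every array are plotted by gene and group.

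**Figure D1:**
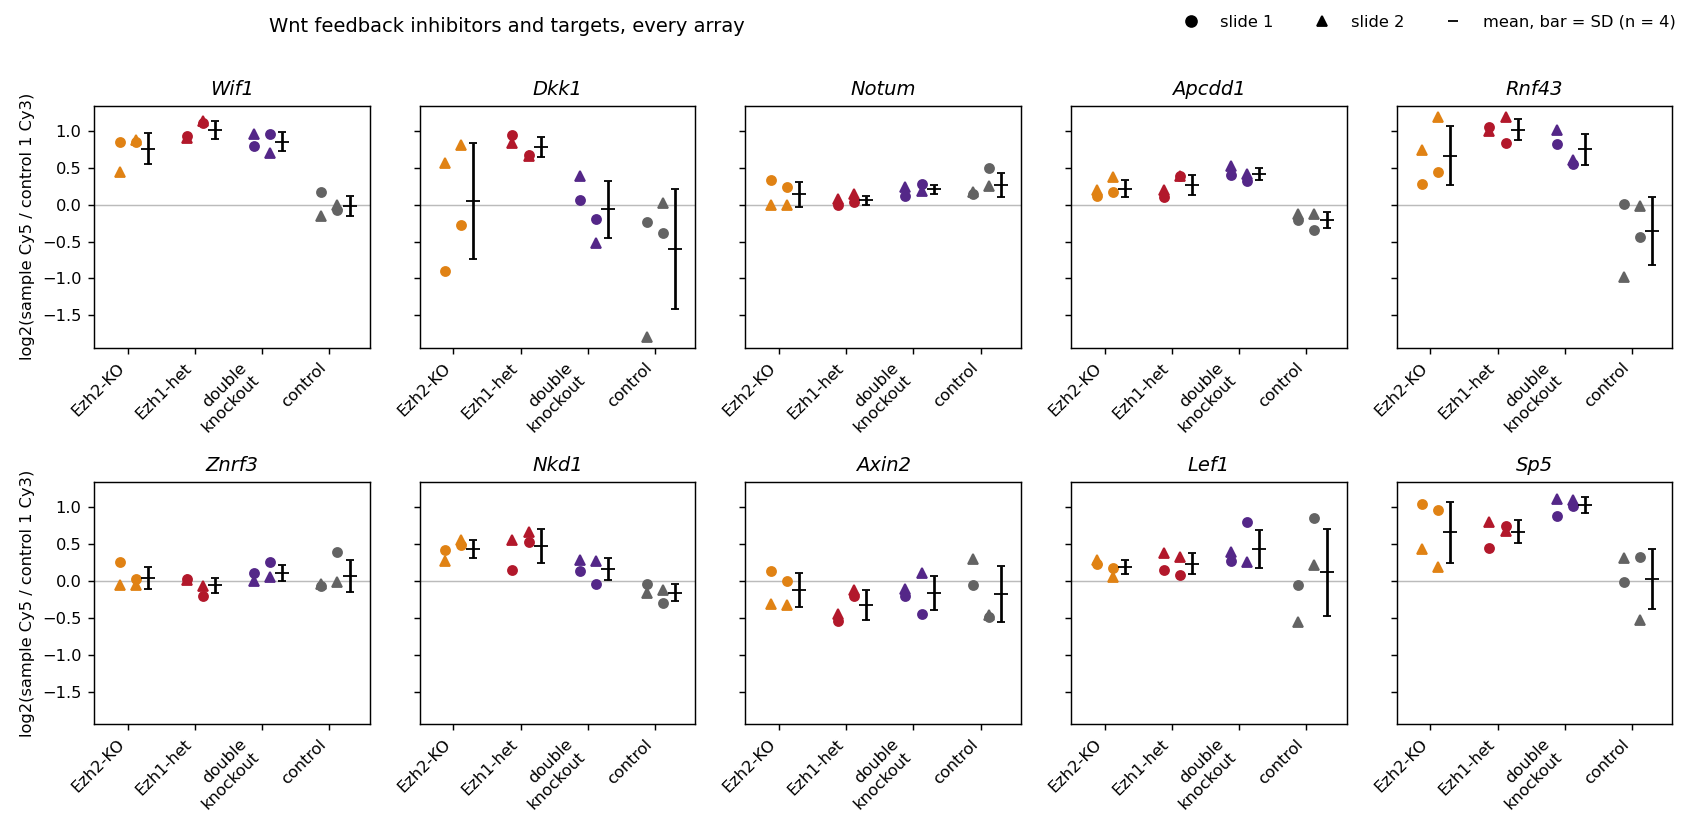
Log2 ratio of each sample to control 1 RNA (vertical axis) for the 10 genes in the 4 groups (horizontal axis), 4 arrays per group, with circles for slide 1, triangles for slide 2 and the mean with its SD. The Wif1 values of all 12 knockout arrays lie between 0.44 and 1.13, above the highest control at 0.17, whereas the Lef1 controls alone run between -0.56 and 0.85.

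Wif1 encodes a secreted protein that binds Wnt ligands and keeps them from their receptors. Its log2 ratios were 0.85, 0.85, 0.44 and 0.88 in Ezh2-KO, 0.92, 1.11, 0.90 and 1.13 in Ezh1-het and 0.79, 0.96, 0.95 and 0.71 in double knockout, against 0.17, -0.07, -0.15 and -0.01 in control. No knockout array overlapped a control, and Ezh2-KO 3 was the lowest of the 12. The differences from control were 0.77, 1.03 and 0.87 in Ezh2-KO, Ezh1-het and the double knockout (SE 0.11 each), which are 1.71-fold, 2.04-fold and 1.83-fold. Every Ezh1-het array was also above every Ezh2-KO array, though only just, at 0.90 or more against 0.88 or less. The probe was well above background on all 12 knockout arrays but on 1 of the 4 controls. It therefore passed the background filter through the knockout arrays. The log ratio of the scanner software, which subtracts background without an offset, put the differences at 2.18, 2.37 and 2.14, so the size of the Wif1 difference, though not its direction, differed between these ways of treating background.

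Dkk1 encodes a secreted antagonist of the co-receptors LRP5 and LRP6, and it is a known Wnt target. Its ratios were -0.90, -0.28, 0.56 and 0.80 in Ezh2-KO, 0.94, 0.68, 0.84 and 0.66 in Ezh1-het and 0.07, -0.20, 0.39 and -0.52 in double knockout, against -0.24, -0.39, -1.79 and 0.02 in control. The Ezh1-het arrays lay close together and above every control and every double knockout array. Ezh2-KO and double knockout overlapped the controls. The difference from control was 0.65 for Ezh2-KO, 1.38 for Ezh1-het and 0.53 for the double knockout (SE 0.37 each). Control 3 set much of its size: without that array the differences were 0.25, 0.98 and 0.14. The 2 Ezh2-KO arrays of slide 1 were negative and the 2 of slide 2 positive, which gave differences of -0.27 on slide 1 and 1.57 on slide 2.

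Notum encodes a secreted enzyme that removes the lipid from Wnt proteins. The probe that stands for it gave 0.33, 0.24, -0.01 and -0.01 in Ezh2-KO, 0.00, 0.04, 0.07 and 0.14 in Ezh1-het and 0.12, 0.28, 0.23 and 0.19 in double knockout, against 0.15, 0.50, 0.17 and 0.25 in control. The Ezh1-het arrays were just below the lowest control and the other groups overlapped it. In Ezh2-KO, Ezh1-het and the double knockout it differed from control by -0.13, -0.21 and -0.06 (SE 0.09 each), and these directions turned to 0.36, 0.31 and 0.42 when arrays were only median-centred in place of loess, which moved the median of all genes to 0.41, 0.44 and 0.38. The other probe gave 0.19, 0.03 and -0.01 (SE 0.08 each), so the 2 Notum probes disagreed in sign in Ezh2-KO and Ezh1-het.

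Apcdd1 encodes a membrane glycoprotein that binds Wnt and LRP proteins and inhibits the pathway. Its ratios were 0.12, 0.17, 0.20 and 0.38 in Ezh2-KO, 0.11, 0.38, 0.20 and 0.39 in Ezh1-het and 0.40, 0.33, 0.52 and 0.42 in double knockout, against -0.21, -0.35, -0.13 and -0.12 in control. All knockout arrays were above all controls. The differences were 0.42, 0.47 and 0.62 in Ezh2-KO, Ezh1-het and the double knockout (SE 0.09 each), or 1.34-fold, 1.39-fold and 1.54-fold. They were nearly the same on the 2 slides, at 0.43 and 0.42 in Ezh2-KO, 0.53 and 0.42 in Ezh1-het and 0.64 and 0.59 in double knockout. The probe was well above background on 3 of 4 controls, and the software's log ratio gave larger differences of 1.13, 1.16 and 1.58.

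Rnf43 and Znrf3 encode related membrane E3 ubiquitin ligases that take Frizzled receptors off the cell surface, and R-spondins with LGR receptors counteract them. Rnf43 gave 0.28, 0.45, 0.74 and 1.19 in Ezh2-KO, 1.05, 0.84, 0.99 and 1.18 in Ezh1-het and 0.82, 0.55, 1.01 and 0.61 in double knockout, against 0.01, -0.44, -0.98 and -0.01 in control. Again no knockout array overlapped a control. The differences were 1.02, 1.37 and 1.11 in Ezh2-KO, Ezh1-het and the double knockout (SE 0.21 each), or 2.03-fold, 2.59-fold and 2.15-fold. Controls 2 and 3 were the lowest, and without both of them the differences were 0.67, 1.02 and 0.75. In each comparison the Rnf43 difference was larger on slide 2, which holds control 3, at 1.46 against 0.58 on slide 1 in Ezh2-KO.

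Znrf3 did not share this pattern. Its ratios were 0.26, 0.03, -0.06 and -0.05 in Ezh2-KO, 0.02, -0.21, 0.01 and -0.07 in Ezh1-het and 0.11, 0.25, 0.00 and 0.05 in double knockout, against -0.07, 0.40, -0.04 and -0.02 in control. All 3 knockout groups overlapped control, in which array 2 stood above the others. The differences of Znrf3 were -0.02, -0.13 and 0.04 (SE 0.11 each), and those in Ezh2-KO and Ezh1-het turned to 0.46 and 0.38 under median centring, near those medians of all genes. The differences of its other probes lay between -0.05 and 0.15. Rnf43 thus lay above control in every group, while the 3 Znrf3 probes stayed within 0.15 of it, before median centring.

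Nkd1 encodes an intracellular protein that binds Dishevelled and dampens Wnt signalling. Its ratios were 0.42, 0.48, 0.26 and 0.56 in Ezh2-KO, 0.14, 0.52, 0.56 and 0.66 in Ezh1-het and 0.13, -0.04, 0.29 and 0.27 in double knockout, against -0.04, -0.31, -0.16 and -0.13 in control. Ezh2-KO and Ezh1-het lay clearly above every control, and the lowest double knockout array was barely above the highest control. The differences were 0.59, 0.63 and 0.32 in Ezh2-KO, Ezh1-het and the double knockout (SE 0.11 each), or 1.5-fold, 1.55-fold and 1.25-fold. The double knockout was 0.31 below Ezh1-het and 0.27 below Ezh2-KO on the log2 scale, with overlapping arrays in both cases.

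Axin2 encodes a scaffold of the β-catenin destruction complex and is often used as a readout of canonical Wnt activity. The probe that stands for it gave 0.13, 0.00, -0.31 and -0.32 in Ezh2-KO, -0.55, -0.21, -0.45 and -0.12 in Ezh1-het and -0.21, -0.45, -0.11 and 0.11 in double knockout, against -0.05, -0.49, 0.30 and -0.47 in control. Every knockout group overlapped control, with differences of 0.05, -0.15 and 0.01 (SE 0.17 each). The other Axin2 probe had a smaller spread. It gave -0.07, -0.15, -0.12 and -0.20 in Ezh2-KO, -0.28, -0.05, -0.32 and -0.14 in Ezh1-het and -0.12, -0.01, -0.17 and 0.17 in double knockout, against 0.03, 0.38, 0.35 and 0.14 in control. On that probe the Ezh2-KO and Ezh1-het arrays were all below the controls, by 0.36 and 0.42, and the double knockout was 0.26 below with 1 array in the control range (SE 0.10 each). Neither Axin2 probe was above control the way Wif1 or Rnf43 was.

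Lef1 encodes a transcription factor that recruits β-catenin to DNA and is itself a target. Its ratios were 0.23, 0.17, 0.28 and 0.06 in Ezh2-KO, 0.15, 0.09, 0.38 and 0.33 in Ezh1-het and 0.27, 0.80, 0.39 and 0.25 in double knockout, against -0.05, 0.85, -0.56 and 0.22 in control. The controls spread wider than any knockout group and enclosed all 12 knockout arrays. The differences were 0.07, 0.12 and 0.31 (SE 0.21 each).

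Sp5 encodes a zinc finger transcription factor that binds near Wnt target genes and is itself among the most direct targets of β-catenin. Its ratios were 1.04, 0.96, 0.43 and 0.19 in Ezh2-KO, 0.44, 0.75, 0.79 and 0.68 in Ezh1-het and 0.88, 1.01, 1.11 and 1.10 in double knockout, against -0.02, 0.33, 0.32 and -0.53 in control. The Ezh1-het and double knockout arrays lay above every control, and the double knockout also above every Ezh1-het array. In Ezh2-KO 1 array, the lowest, fell among the controls. The differences from control were 0.63, 0.64 and 1.00 in Ezh2-KO, Ezh1-het and the double knockout (SE 0.19 each), or 1.55-fold, 1.56-fold and 2.00-fold. The double knockout mean of Sp5 was 0.36 above that of Ezh1-het and 0.37 above that of Ezh2-KO.

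**Figure D2:**
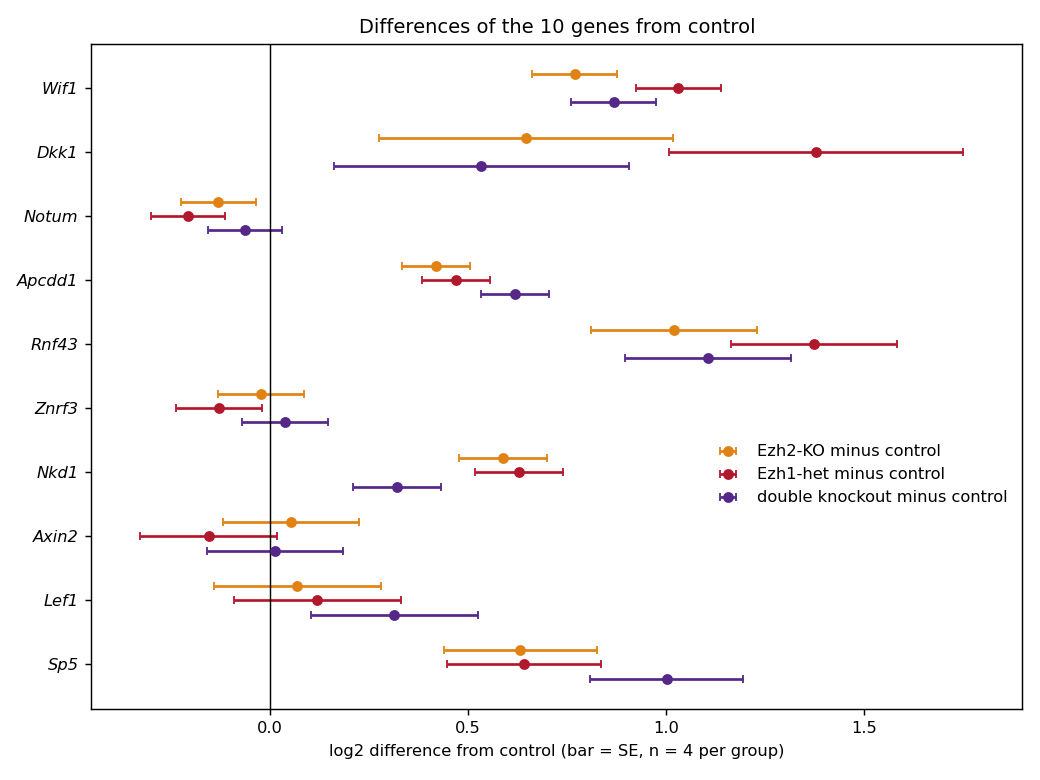
Log2 difference from control (horizontal axis) of the 10 genes (vertical axis) in Ezh2-KO, Ezh1-het and the double knockout, with bars for the SE from the fit over all genes (n = 4 arrays per group). Wif1, Apcdd1, Rnf43, Nkd1, Sp5, Dkk1 and Lef1 lie right of 0 in all 3 comparisons, with Lef1 bars that cross 0 in Ezh2-KO and Ezh1-het. Notum lies left of 0 in each, a direction that turned under median centring.

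In Ezh2-KO 4 of the 10 genes were called higher than control (Wif1, Apcdd1, Rnf43 and Nkd1), beside 3.08% of all genes called in either direction and 2.40% called higher. In Ezh1-het 5 were called higher (the same 4 and Dkk1), beside 7.81% and 5.91% of all genes. The Dkk1 call was lost without control 2, control 3 or any 1 Ezh1-het array, with differences of 0.98 to 1.58, and it was made in 10 of 21 alternatives. In double knockout 4 were called higher (Wif1, Apcdd1, Rnf43 and Sp5), beside 4.62% and 3.71%. By the probes that stand for them, none of the 10 was called lower in these comparisons, beside 0.677%, 1.9% and 0.914% of all genes. The other Axin2 probe, below every control in Ezh2-KO and Ezh1-het as given above, does not enter these calls. In Ezh2-KO the Apcdd1 call was lost without control 2 or Ezh2-KO 4, at 0.37 to 0.45, and the Rnf43 call without control 2, at 0.81 to 1.15. The other calls of the 10 genes against control held without any 1 array. Nothing is read from these counts, or from the calls that held, because the differences chose the genes. By the position of single arrays, 4, 6 and 5 of the 10 genes had every Ezh2-KO, Ezh1-het or double knockout array above every control, beside 7.91%, 12.6% and 6.35% of all genes, and Notum had every Ezh1-het array below every control, beside 5.22%. The comparisons with control share the same 4 control arrays.

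Between the knockout groups none of the 10 genes was called by limma, beside 0.0575% of all genes for Ezh1-het against Ezh2-KO, 0.377% for double knockout against Ezh1-het and 0.914% for double knockout against Ezh2-KO. The number of all genes at an unadjusted p under 0.05 was 1153, 2143 and 1993 in these comparisons. With array weights 2, 1 and 1 of the 10 were called. The lowest and highest differences over the 10 genes were -0.21 and 0.73 for Ezh1-het minus Ezh2-KO, -0.84 and 0.36 for double knockout minus Ezh1-het, and -0.27 and 0.37 for double knockout minus Ezh2-KO. Dkk1 gave the 0.73 and the -0.84. By single arrays, Wif1 was higher, though only just, in all of Ezh1-het than in all of Ezh2-KO, beside 1.99% of all genes. Sp5 was higher in all of the double knockout than in all of Ezh1-het, beside 2.83% of all genes, and Dkk1 was lower there, beside 9.82%.

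Within slides, each with 2 arrays per group, the differences of Wif1, Apcdd1, Rnf43, Nkd1 and Sp5 were above 0 on both slides in all 3 comparisons. Wif1 was 0.80 and 0.74 in Ezh2-KO, 0.97 and 1.10 in Ezh1-het and 0.83 and 0.91 in double knockout, on slides 1 and 2. Sp5 was 0.85 and 0.42, 0.44 and 0.84, and 0.79 and 1.21 in the same order of groups. Lef1 changed sign between slides in Ezh2-KO, at -0.20 and 0.34, and in Ezh1-het, at -0.28 and 0.52. Axin2 changed sign in Ezh2-KO, at 0.34 and -0.23, and in double knockout, at -0.06 and 0.08. Notum changed sign in double knockout, at -0.13 and 0.0044, and Dkk1 in Ezh2-KO, as given above.

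**Figure D3:**
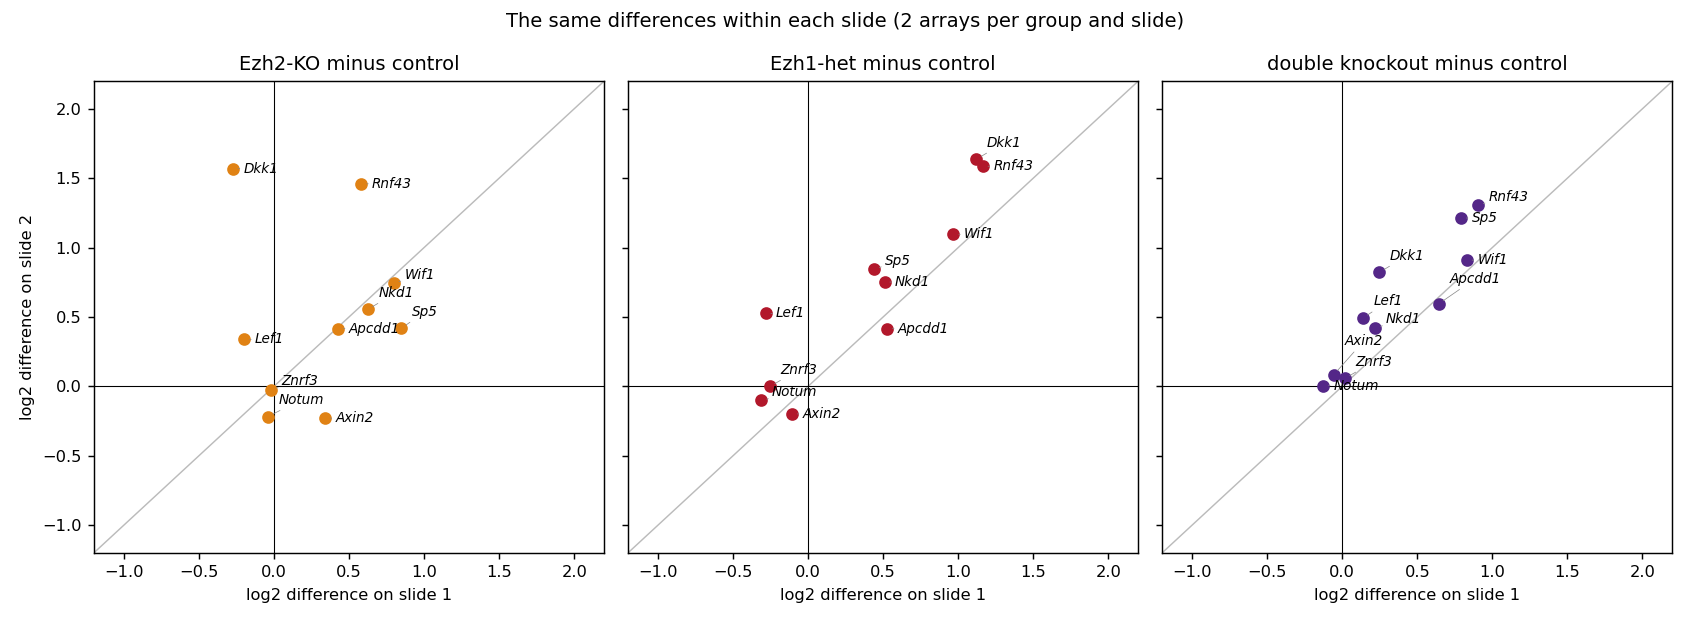
Log2 difference from control of the 10 genes on slide 1 (horizontal axis) and slide 2 (vertical axis), each from 2 arrays per group, with the grey line marking equal values. Wif1 and Apcdd1 lie near the line in each panel, whereas Dkk1 lies far above it in Ezh2-KO, at -0.27 and 1.57.

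Control 3 was the lowest control for Dkk1, Rnf43, Wif1 and Lef1. The same array was the lowest of the controls in the mean log2 ratio of the early nephron markers, at -1.10 against -0.09 to 0.05 on the other controls, and of the ureteric bud and collecting duct markers, at -1.10. It was also lowest in the proximal tubule markers, at -1.94 against -0.18 to 0.44 on the other controls, in the loop of Henle and distal tubule markers, at -1.79 against -0.48 to 0.03, and in the podocyte markers, at -0.44 against -0.21 to 0.04, and highest in the nephron progenitor markers, at 0.43 against -0.13 to 0.11. For the counts that follow, 2.40%, 5.91% and 3.71% of all genes were called higher in Ezh2-KO, Ezh1-het and the double knockout. The shares called lower were 0.677%, 1.9% and 0.914%. All 8 early nephron markers were measured. Of them 1, 3 and 3 were called higher than control in Ezh2-KO, Ezh1-het and the double knockout and none lower, and their summed signal ran from 18756 to 26104, 20302 to 25276 and 16052 to 22527 in these groups, against 11161 to 24313 in control. Of 8 podocyte markers 5 were called higher in Ezh1-het, with summed signals of 16571 to 17087 in Ezh1-het and 13426 to 17805 in control, and none was called in Ezh2-KO or double knockout. Of 8 nephron progenitor markers 2, 3 and 2 were called lower in Ezh2-KO, Ezh1-het and the double knockout, with 1 higher in double knockout, and their summed signal ran from 45901 to 62888, 40706 to 51237 and 37547 to 56094, against 52587 to 87548 in control. Of 8 stroma markers 2, 1 and 2 were called higher in Ezh2-KO, Ezh1-het and the double knockout, with summed signals of 5952 to 10368, 4353 to 8779 and 5737 to 8621, against 2888 to 8744 in control. None of 8 proximal tubule markers was called by limma, with median differences of -0.49, 0.51 and -1.26 and summed signals of 1888 to 13943, 9783 to 14552 and 1760 to 5127, against 2553 to 15379 in control. Of 6 neutrophil markers 4 were measured, Ngp and Ltf did not pass the background filter, and 2 were called higher in Ezh2-KO, with summed signals of 575 to 4715 against 323 to 493 in control. Of 6 macrophage markers 1 was called lower in each knockout group. Of 6 loop of Henle and distal tubule markers 1 was called higher in Ezh1-het. No measured ureteric bud and collecting duct, endothelium, erythroid, neuron or adrenal and liver marker was called against control. The part of these cell populations in the values of the 10 genes was not tested. In whole kidneys fewer cells of a type and less RNA per cell cannot be told apart.

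The genes most like Wif1, Nkd1 and Rnf43 were taken by the smallest root mean square difference of log2 ratios over the 16 arrays, each gene centred on its control mean. For Wif1 they were Zdbf2, at 0.15, Bex2, at 0.16, and Ptpru, at 0.17. For Nkd1 they were Large2, at 0.11, Tspan18, at 0.13, and Eml2, at 0.14. For Rnf43 they were the MHC class I genes H2-K2, at 0.18, and H2-Q7, at 0.19, whose sequences are closely related so that their probes may share signal, and Cyp1b1, at 0.20. Relative to control, Zdbf2 averaged 0.80, 0.99 and 0.85 in Ezh2-KO, Ezh1-het and the double knockout, beside 0.77, 1.03 and 0.87 for Wif1. Large2 averaged 0.53, 0.58 and 0.27, beside 0.59, 0.63 and 0.32 for Nkd1. These likenesses share arrays and the control RNA and are descriptions.

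The remaining Wnt pathway was followed in a list of 108 further genes sorted by role, of which 92 were measured. In Ezh1-het 14 of the 92 (15.2%) were called against control by limma, 10 higher and 4 lower, beside 7.81% of all genes. In double knockout 5 (5.43%) were called, 4 higher and 1 lower, a share near the 4.62% of all genes. In Ezh2-KO limma called 0 of 92, beside 3.08% of all genes, with 31 of the 92 and 3329 of all 15646 genes at an unadjusted p under 0.05. Alternatives in Ezh2-KO gave 1 call from the software's log ratio, 19 with array weights and 31 under median centring. Differences between these counts were not tested. The median difference over the 92 was 0.08, 0.07 and 0.00 in Ezh2-KO, Ezh1-het and the double knockout. Between the knockout groups limma called 0 of them in each comparison, with 6, 14 and 8 at an unadjusted p under 0.05 for Ezh1-het against Ezh2-KO, double knockout against Ezh1-het and double knockout against Ezh2-KO, and array weights called 26, 4 and 19. Within slides, with 2 arrays per group, 2 on slide 1 and 0 on slide 2 were called in Ezh1-het, and likewise 2 and 0 in double knockout. Leaving out single arrays gave 4 to 13 calls in Ezh1-het and 2 to 7 in double knockout, fewest in Ezh1-het without Ezh1-het 2 or Ezh1-het 4 and in double knockout without double knockout 3.

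**Figure D4:**
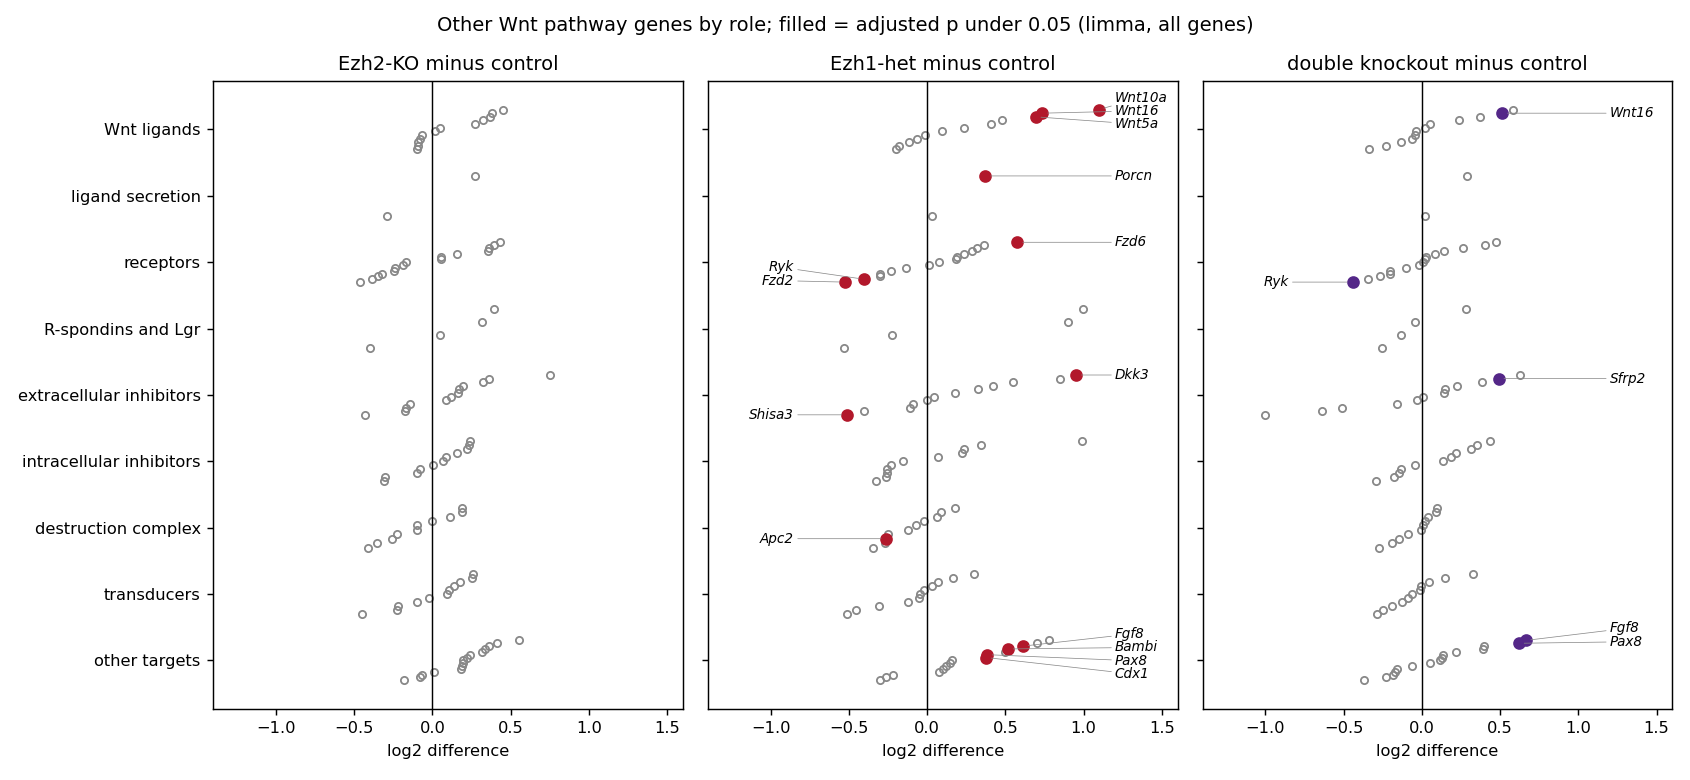
Log2 difference from control (horizontal axis) of 92 other Wnt pathway genes in rows by role (vertical axis), with filled and named points for limma adjusted p under 0.05 over all genes and open points for the rest. No point is filled in Ezh2-KO, 14 are in Ezh1-het and 5 in double knockout.

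Among the ligands 12 of 19 were measured, and 3 were called higher in Ezh1-het and 1 in double knockout. Wnt10a had log2 ratios of 1.15, 1.26, 0.62 and 0.84 in Ezh1-het, against -0.23, -0.14, -0.19 and 0.05 in control, a difference of 1.10 (2.14-fold, SE 0.19, limma adjusted p = 0.002542). It spread from -0.08 to 0.90 in Ezh2-KO and from -0.04 to 0.41 in double knockout. The Wnt10a probe was well above background on 3 control, 2 Ezh2-KO, 4 Ezh1-het and 3 double knockout arrays. Wnt16 was not well above background on any control and was on all 4 Ezh1-het arrays. It therefore passed the background filter through knockout arrays alone. Its log2 ratio was 0.74 above control in Ezh1-het (1.66-fold, SE 0.14, limma adjusted p = 0.004853). In double knockout it was 0.51 above (1.43-fold, SE 0.14, limma adjusted p = 0.04261). By Cy5 level the folds were 1.92 and 1.53. There each control array was set to the lowest signal well above background, or to the probe's own signal if higher. With no swapped dyes these Cy5 folds are open to dye bias. The double knockout call of Wnt16 was lost on leaving out any of 7 of the 8 arrays, all but double knockout 4, with differences between 0.41 and 0.63. Wnt5a, which acts mostly outside the β-catenin route, was 0.69 higher in Ezh1-het (SE 0.18, limma adjusted p = 0.02911), and leaving out single arrays put it between 0.55 and 0.79 with 6 of 8 ending the call (controls 2 and 3 and each Ezh1-het array). The calls of Wnt10a and Wnt16 in Ezh1-het held without any 1 array, though the filter took in Wnt16 only through groups where it was high.

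The inductive ligands of the nephron progenitors did not pass the test. Wnt9b was well above background on 2 Ezh2-KO arrays, 1 Ezh1-het array and no double knockout array, against 2 of 4 controls. It differed from control by 0.02 and -0.18 in Ezh2-KO and Ezh1-het (SE 0.13 each, limma adjusted p = 0.955 and 0.422). In double knockout the Wnt9b difference was -0.23, or 1.17-fold lower, with overlapping arrays (SE 0.13, limma adjusted p = 0.425). By Cy5 level, with the dim arrays set as for Wnt16, it was 1.24-fold lower. Neither fold is a lower limit. Wnt4 differed by 0.27, -0.01 and -0.06 (SE 0.16 each, limma adjusted p = 0.330, 0.973 and 0.885). Of the 2 genes for ligand secretion Porcn was called higher in Ezh1-het, by 0.37 (SE 0.10, limma adjusted p = 0.03384). Leaving out control 2, control 3, Ezh1-het 2 or Ezh1-het 4 ended the call of Porcn, with differences of 0.30 to 0.42.

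Among the receptors all 15 were measured, and 1 was called higher and 2 lower in Ezh1-het, and 1 lower in double knockout. Fzd6 was 0.58 higher in Ezh1-het (SE 0.15, limma adjusted p = 0.03442) and Fzd2 fell by 0.53 (SE 0.14, limma adjusted p = 0.0343). Each of these calls ended on leaving out any of controls 2 and 3 or of Ezh1-het 1, 2 and 4, with differences of 0.48 to 0.70 for Fzd6 and -0.62 to -0.40 for Fzd2. Ryk, a Wnt receptor related to tyrosine kinases, had ratios of -0.67, -0.57, -0.59 and -0.50 in Ezh1-het and -0.62, -0.79, -0.62 and -0.46 in double knockout, against -0.18, 0.06, -0.27 and -0.32 in control. All 8 of these knockout arrays were below every control. The differences of Ryk were -0.40 (SE 0.10, limma adjusted p = 0.02359) and -0.44 (SE 0.10, limma adjusted p = 0.01427). The Ezh1-het call of Ryk ended without control 2 or without any of Ezh1-het 1, 2 and 3, at -0.45 to -0.32 over all arrays left out, and the double knockout call held. The lower directions of Fzd2 and Ryk turned when arrays were only median-centred, a setting that moved the median of all genes to 0.44 in Ezh1-het and 0.38 in double knockout. There Fzd2 was 0.09 in Ezh1-het and Ryk 0.24 and 0.18 in Ezh1-het and double knockout, which is below those medians.

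Of the R-spondins and LGR receptors, which counteract RNF43 and ZNRF3, 4 of 7 were measured and none was called. Lgr5, itself a known Wnt target, differed by 0.40, 0.99 and 0.28 in Ezh2-KO, Ezh1-het and the double knockout, with an SE of 0.42 each (limma adjusted p = 0.591, 0.151 and 0.793). Rspo1 differed by 0.05, -0.22 and -0.13 (SE 0.20 each, limma adjusted p = 0.908, 0.508 and 0.792). Rspo3 differed by -0.40, -0.53 and -0.26 (SE 0.16 each, limma adjusted p = 0.180, 0.060 and 0.473).

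Among the other extracellular inhibitors 12 of 16 were measured, with 1 called higher and 1 lower in Ezh1-het and 1 higher in double knockout. Dkk3, a relative of Dkk1 whose part in Wnt signalling is less clear, had ratios of 1.14, 1.03, 0.95 and 0.96 in Ezh1-het, against 0.20, -0.54, 0.31 and 0.31 in control. The 4 Ezh1-het arrays were close together and control 2 stood below the other controls. The difference of Dkk3 was 0.95 (SE 0.20, limma adjusted p = 0.0115) and held without any 1 array, between 0.75 and 1.03. In Ezh2-KO it was 0.75 (SE 0.20, limma adjusted p = 0.054). Sfrp2, a secreted Frizzled-related protein that binds Wnt, was 0.49 higher in double knockout (SE 0.13, limma adjusted p = 0.03469). That call of Sfrp2 ended without control 2, control 3, double knockout 1 or double knockout 3, with differences between 0.39 and 0.58. Shisa3 was the gene called lower in Ezh1-het, at -0.51. Leaving out each of the 8 arrays ended the Shisa3 call, with differences of -0.58 to -0.41, and its direction turned under median centring.

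Of the listed transducers, intracellular inhibitors and destruction complex genes, 1 was called against control. Nkd1 and Axin2, described above, are not among them. All 11 measured transducers and all 11 measured intracellular inhibitors missed the threshold in each comparison with control. Of the 10 genes of the destruction complex 1, Apc2, was called lower in Ezh1-het, at -0.26 (SE 0.08, limma adjusted p = 0.04928). That call of Apc2 ended on leaving out any of 7 of the 8 arrays, all but control 1, at -0.29 to -0.24, and its direction turned to 0.015 under median centring. Ctnnb1, which encodes β-catenin, differed by 0.09, -0.04 and -0.19 in Ezh2-KO, Ezh1-het and the double knockout (SE 0.09 each, limma adjusted p = 0.569, 0.800 and 0.311). Tcf7, which encodes a relative of LEF1, differed by 0.26, 0.17 and 0.33 (SE 0.10 each, limma adjusted p = 0.170, 0.326 and 0.087).

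Among other targets 15 of 17 were measured, with 4 called higher in Ezh1-het and 2 in double knockout and none lower. Fgf8, a growth factor of the early nephron, had ratios of 0.04, 0.25, 0.44 and 0.36 in Ezh1-het and 0.26, 0.27, 0.41 and 0.35 in double knockout, against -0.18, -0.21, -0.92 and -0.05 in control. Both groups lay above every control, and control 3 was the lowest. The differences of Fgf8 were 0.61 (SE 0.15, limma adjusted p = 0.0243) in Ezh1-het and 0.66 (SE 0.15, limma adjusted p = 0.0167) in double knockout. Without control 3 they were 0.42 and 0.47. The Ezh1-het call of Fgf8 ended without Ezh1-het 2, 3 or 4, and the double knockout call without double knockout 3.

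Pax8, a transcription factor of the forming nephron, had ratios of 0.65, 0.67, 0.53 and 0.39 in double knockout and 0.27, 0.22, 0.41 and 0.39 in Ezh1-het, against -0.01, -0.06, -0.09 and -0.08 in control. All were above every control. The differences of Pax8 were 0.62 (SE 0.11, limma adjusted p = 0.002499) in double knockout and 0.38 (SE 0.11, limma adjusted p = 0.04376) in Ezh1-het. The double knockout call held without any 1 array, and the Ezh1-het call ended on leaving out each of the 8, with differences of 0.35 to 0.42. Pax8 and Fgf8 are also on the list of early nephron markers given above. Bambi, a pseudoreceptor of the TGF-β family and a known Wnt target, was 0.52 higher in Ezh1-het (SE 0.13, limma adjusted p = 0.02307), and 5 of 8 arrays (controls 2 and 3 and Ezh1-het 1, 3 and 4) ended that call when left out, at 0.43 to 0.59. Cdx1 was 0.38 higher in Ezh1-het. That call of Cdx1 ended on leaving out any of 7 of the 8 arrays, all but Ezh1-het 3, at 0.30 to 0.44.

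Ccnd1, which encodes cyclin D1, differed by 0.34, 0.50 and 0.05 in Ezh2-KO, Ezh1-het and the double knockout (SE 0.18 each, limma adjusted p = 0.288, 0.097 and 0.917). Lhx1, a transcription factor of the renal vesicle, differed by 0.01, 0.15 and -0.19 (SE 0.31 each, limma adjusted p = 0.985, 0.803 and 0.818). Neither passed the test in any group.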

How the data were processed

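Total RNA of 16 whole kidney samples was measured on 2-colour Agilent arrays. The deposited files hold median intensities of spots and background from Agilent Feature Extraction 10.7.3.1 (per the file headers), and the deposited log10 column is the software's own Cy5 over Cy3 ratio; the deposited value table holds that log10 ratio rounded (largest difference 0.005, every array's median 0). Intensities were background-corrected (normexp, offset 50) and normalised within arrays by loess in limma 3.58.1 under R 4.3.3. Control spots had weight 0 in the loess, and spots flagged as outliers were dropped. No spot was saturated. A probe was kept if the software called its Cy5 signal well above background on 4 or more of 16 arrays (34732 of 56605). The brightest probe stood for its gene. Symbols came from RefSeq by accession, for 32994 probes, and 23611 stayed unnamed. Per array, Cy5 signal over background had a 75th percentile of 5.21 to 16.6, and the number of arrays limits precision.

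All 4 groups entered 1 fit, without a replicate block. Same-numbered arrays deviated with correlations between -0.48 and 0.51, so the numbers were not taken as pairs. The 10 genes and the lists were chosen with earlier results of these data known. Of the other pathway genes, those named are all that passed the test in a comparison, or the 8 with the largest difference if more did, plus Wnt9b, Wnt4, Ctnnb1, Lgr5, Rspo1, Rspo3, Tcf7, Ccnd1 and Lhx1; Porcn, Apc2 and the further names in the plot by role were added because they passed the test. The alternatives tried were other background, centring, filter, probe, block, variance and weight settings, single slides and left-out arrays.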

Additional observations from a re-analysis of the deposited data

Results flagged for a closer look

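Within groups of 4 arrays, the most extreme array was set against the gap to its nearest neighbour (Dixon's ratio), for 34 genes in 4 groups each. Of the 136 gene and group pairs 5 were singled out, and chance singles out about 1 in 20. Wif1 was 0.44 on Ezh2-KO 3, with the other Ezh2-KO arrays between 0.85 and 0.88. Znrf3 was 0.40 on control 2, with the other controls between -0.07 and -0.02. Dkk3 was -0.54 on control 2, with the others between 0.20 and 0.31. Ctnnb1 was 0.0052 on Ezh1-het 1, with the others between 0.11 and 0.13. Rspo3 was 0.088 on double knockout 4, with the others between -0.28 and -0.23.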

How the results depend on the processing

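All differences of Wif1, Apcdd1, Rnf43, Nkd1 and Sp5 from control stayed above 0 under the 21 alternatives run. Nothing is read from that, because these differences chose the genes and the alternatives use the same arrays. Counts of called genes are given below for Ezh2-KO, Ezh1-het and double knockout against control in that order, with 4, 5 and 4 of the 10 genes and 0, 14 and 5 of the 92 pathway genes as reported. Array weights gave 19, 24 and 18 pathway genes. Median centring, which moved the median of all genes to 0.41, 0.44 and 0.38, gave 8, 8 and 8 of the 10 and 31, 49 and 32 of the 92. It turned the sign, in Ezh1-het, of Apc2 (0.015), Fzd2 (0.095), Ryk (0.24), Shisa3 (0.11), Wnt4 (0.67) and Ctnnb1 (0.59), and of Ryk in double knockout (0.18). It also turned Notum in all 3 groups (0.36, 0.31 and 0.42), called in Ezh2-KO and double knockout, and Znrf3 in Ezh2-KO and Ezh1-het (0.46 and 0.38), called in both. Slide 1 alone gave 1, 3 and 2 of the 10 and 1, 2 and 2 of the 92. Slide 2 alone gave 0, 0 and 0 of the 10, and 0 of the 92 in Ezh1-het and double knockout. Without controls 2 and 3 the counts were 1 and 3 of the 10 in Ezh2-KO and Ezh1-het, and 2 and 2 of the 92 in Ezh1-het and double knockout. Fits of only the groups compared gave 2 of the 10 in Ezh2-KO and 1 of the 92 in double knockout. The software's log ratio gave 1 of the 92 in Ezh2-KO and 9 in Ezh1-het. The mean of probes, the slide block and the trended variance gave 1 each of the 92 in Ezh2-KO. Leaving out single arrays gave 2 to 4, 4 to 5 and 4 of the 10 genes, and 0 to 3, 4 to 13 and 2 to 7 of the 92.

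For the comparisons between knockout groups, array weights gave 26, 4 and 19 pathway genes and 2, 1 and 1 of the 10 for Ezh1-het against Ezh2-KO, double knockout against Ezh1-het and double knockout against Ezh2-KO. Slide 1 alone gave 12 pathway genes and 1 of the 10 for the first and 1 pathway gene for the second. Leaving out single arrays gave 0 to 1 pathway genes for the first. Fits of only Ezh1-het and double knockout gave 7 pathway genes and 2 of the 10. The cause of these changes was not tested, except that single slides and fits without arrays use fewer arrays. With a replicate block the counts were 4, 4 and 4 of the 10 and 0, 11 and 5 of the 92 against control, with 5 of 16 arrays most like an array of their own number. Dim probes limit the size of a fold, since the offset draws their ratios towards 0.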
